A study of Mus musculus with 14 samples.

Results

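The genes described here encode 10 transcription factors of early mesoderm: *T* (brachyury), *Mixl1*, *Eomes*, *Mesp1*, *Hand1*, *Hand2*, *Tbx6*, *Msgn1*, *Foxc1* and *Gsc*. They were chosen by name with the RNA-seq values of the time course and the tissues in view, so the levels below are a description of the data and not a test. All 10 were found, each at 1 locus, among the 23152 loci that each RNA-seq table lists.

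Mesoderm arises when epiblast cells pass through the primitive streak under the influence of Nodal, Wnt, Bmp and Fgf signals. The T-box factors T and EOMES and the homeobox factors MIXL1 and GSC mark the streak and its anterior derivatives. TBX6 and MSGN1 then act in presomitic mesoderm, MESP1 in the first cardiac and cranial mesoderm, and HAND1 and HAND2 in lateral plate and heart. FOXC1 acts in paraxial mesoderm and in mesenchyme. Several of these factors also work outside mesoderm: EOMES and HAND1 in trophoblast, HAND2 in sympathetic neurons. The cultures in which they were measured were directed toward spinal motor neurons with retinoic acid and SAG, a small molecule that activates hedgehog signalling.

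The study asked how mouse cells and tissues differ when TAF9B, a paralog of the general transcription factor subunit TAF9, is missing. RNA-seq was available as 1 library each of embryonic stem (ES) cells and of embryoid bodies (EBs) at days 2, 4 and 6, labelled wild type (WT, JM8 clone) or *Taf9b* knockout (KO, Taf9b_BG10 clone). The labels add newborn spinal column tissue of both genotypes, which the methods describe as lumbar, and newborn WT spinal cord, which makes 11 libraries in all, on the C57BL/6 background. The knockout allele carries a LacZ-Neo cassette in place of the coding exons on the X chromosome, and the ES cells are male. Each genotype is a single clone, so clone and genotype cannot be told apart, and both clones were grown on feeder layers of inactivated embryonic fibroblasts. The ChIP-seq peaks come from WT EBs differentiated for 8 days from a separate line, HBG3, which carries GFP under the *Mnx1* promoter.

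With 1 library per condition no value has a replicate or an error, and no test was made. Levels are FPKM, fragments scaled to the length of the transcript and to the size of the library, so that genes can be compared with each other. The number of reads behind each value is unknown. A member was called past 2-fold if either of the 2 libraries compared held it above 1 FPKM and the levels differed by more than 2-fold. The share of all loci that met the same rule is given beside the first count of members in each comparison, and the counts of the gene lists can be read against it too. A list's median log2 ratio covers the genes that passed this limit unless stated otherwise, so a gene high in a single library enters it. Where 1 library alone held a gene above 1 FPKM, the gene could be called only as higher in that library. In these bulk samples, fewer cells of a type and less RNA per cell cannot be told apart.

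*Taf9b* itself went against the labels in the cultures. In ES cells its levels were 0.537 FPKM (WT label) and 3.06 FPKM (KO label), and at day 2 they were 0.516 and 4.08 FPKM. At day 4 it was at 1.96 and 4.27 FPKM, and at day 6 at 1.37 and 4.01 FPKM, again higher in the library labelled KO. In spinal column the order was the opposite, with 6.65 FPKM under the WT label and 3.31 FPKM under the KO label. No library labelled KO held less than 3.06 FPKM, spinal column included, although the knockout allele lacks the coding exons. The *Taf9b* level alone therefore cannot settle the genotype of a library. Every direction below is therefore that of the library labelled WT or KO. Whether the labels of the cultures were exchanged was not tested, and if they were, every direction given for the cultures would turn. The labelled cell types had their markers, with the 8 pluripotency genes summing to 1640 to 1663 FPKM in the ES libraries. The 10 neural progenitor and motor neuron genes summed to 754 FPKM at day 6 under the WT label but to 57.8 FPKM under the KO label, where the pluripotency genes summed to 1037 FPKM against 442 FPKM.

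The members were sparse. Of the 110 values (10 genes in 11 libraries), 33 were above 1 FPKM and 14 were listed at 0. *Mixl1*, *Mesp1* and *Tbx6* did not pass 1 FPKM in any library, and *Msgn1* passed it in 1 library alone, spinal column with the KO label. The other 6 members passed 1 FPKM in at least 1 culture library. The leading member changed along the time course. In ES cells and at day 2 it was *T* under the WT label and *Hand1* under the KO label, where *T* was the third. *Foxc1* led at day 4 of both labels, and at day 6 *Hand2* led under the WT label and *Hand1* under the KO label. *Foxc1* led in all 3 tissue libraries.

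**Figure D1:**
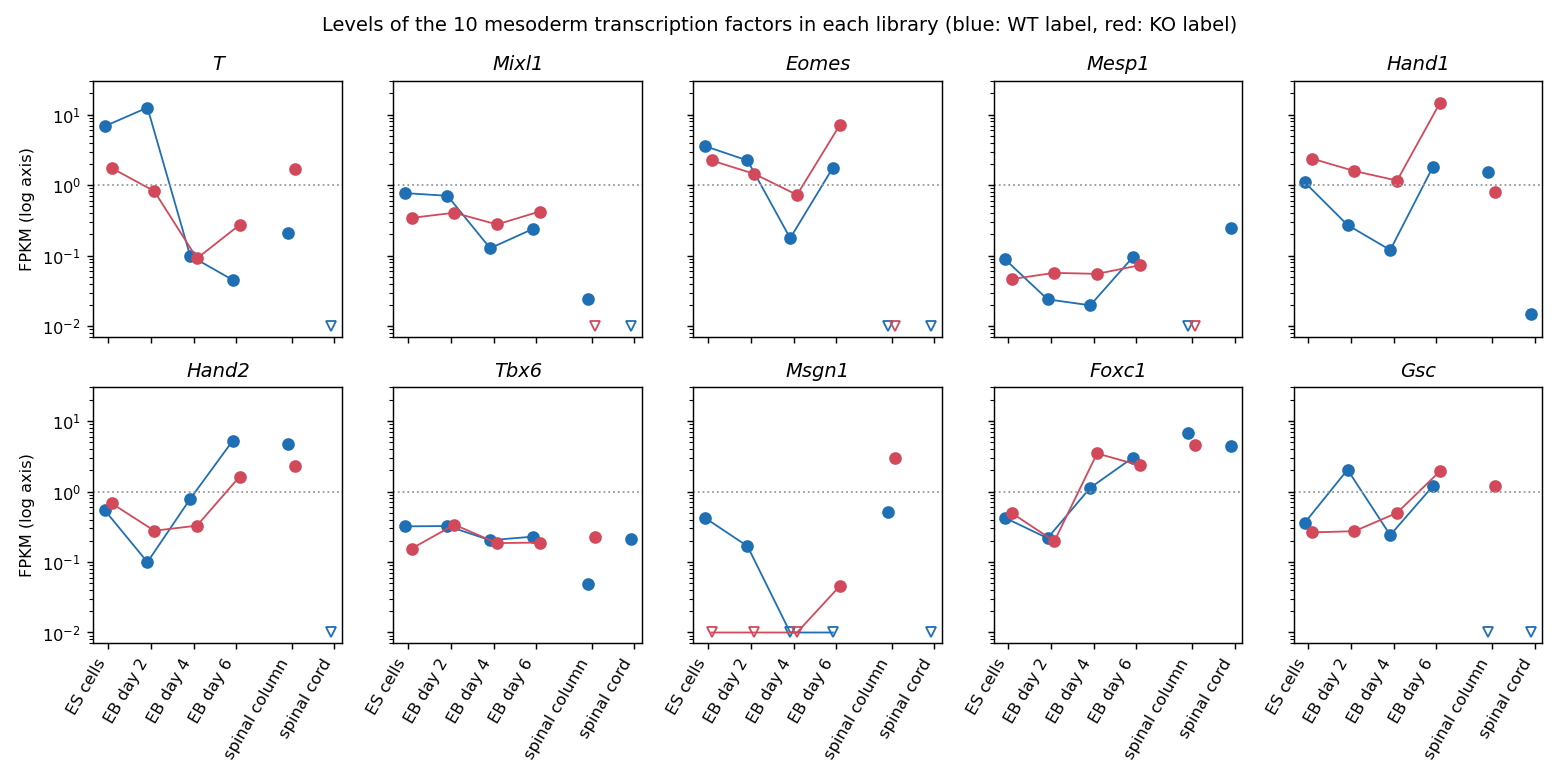
FPKM of each member (log axis) in ES cells, in EBs at days 2, 4 and 6, in spinal column and in spinal cord. Blue points are libraries labelled WT and red points libraries labelled KO, 1 library each with no error bars, open triangles at the bottom stand for values under 0.01 FPKM or listed at 0, and the dotted line is 1 FPKM; *T* starts high and is lost by day 4, while *Hand1*, *Hand2* and *Foxc1* are highest at day 6 or in tissue, and *Eomes* is highest at day 6 under the KO label but in ES cells under the WT label.

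*T*, the T-box factor that defines the primitive streak and notochord, lies on chromosome 17 from 8627288 to 8635361 (mm9, plus strand). Its levels under the WT label were 6.86 FPKM in ES cells and then, at days 2, 4 and 6, 12.6, 0.0998 and 0.0451 FPKM. The libraries labelled KO gave 1.75, 0.822, 0.0914 and 0.274 FPKM at the same steps. *T* was at 0.213 FPKM in spinal column with the WT label and 1.72 FPKM with the KO label, and listed at 0 in spinal cord. Thus both cultures lost *T* by day 4, but only the WT label showed more of it at day 2 than in ES cells. *Gsc*, a homeobox factor of the anterior streak, followed *T* at day 2. It was at 0.362, 2.04, 0.241 and 1.20 FPKM from ES cells to day 6 under the WT label and at 0.263, 0.273, 0.498 and 1.93 FPKM under the KO label. It was listed at 0 in spinal column with the WT label and in spinal cord, and at 1.19 FPKM in spinal column with the KO label. *Gsc* so had 2 high points in the WT-labelled culture, at days 2 and 6, and a single one, at day 6, in the other.

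*T*, *Gsc* and *Msgn1* were past 2-fold higher with the KO label in spinal column, and *T* and *Gsc* lower with it at day 2. The sequences before the starts of these 3 genes are therefore shown. They are the 250 bases before each RefSeq start (build GRCm38.p6), 5′ to 3′ on the strand of the gene. Capitals mark the TCF/LEF letters CTTTGAA or CTTTGAT, the TATA letters TATAAA and the GC box GGGCGG, searched on both strands.
*T*, chr17:8434173-8434422, plus strand: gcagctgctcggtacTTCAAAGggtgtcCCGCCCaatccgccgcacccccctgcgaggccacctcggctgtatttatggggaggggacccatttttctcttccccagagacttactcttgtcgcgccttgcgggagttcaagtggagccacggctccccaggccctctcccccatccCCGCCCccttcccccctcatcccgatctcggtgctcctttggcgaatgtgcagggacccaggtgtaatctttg
*Gsc*, chr12:104473237-104473486, minus strand: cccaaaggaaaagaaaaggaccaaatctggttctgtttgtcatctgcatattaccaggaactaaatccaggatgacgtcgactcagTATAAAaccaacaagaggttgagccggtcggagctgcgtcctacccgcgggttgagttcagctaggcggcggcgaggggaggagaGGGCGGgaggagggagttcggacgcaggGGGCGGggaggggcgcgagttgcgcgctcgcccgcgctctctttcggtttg
*Msgn1*, chr12:11208949-11209198, minus strand: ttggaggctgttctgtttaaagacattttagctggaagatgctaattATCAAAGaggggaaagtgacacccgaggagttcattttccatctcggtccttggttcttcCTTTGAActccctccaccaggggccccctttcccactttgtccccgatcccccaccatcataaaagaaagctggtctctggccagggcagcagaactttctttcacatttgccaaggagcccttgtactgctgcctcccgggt

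The stretch before *T* held 1 TCF/LEF match, 235 bases before the start, and 2 GC boxes. That before *Msgn1* held 2 TCF/LEF matches, 203 and 143 bases before the start, and that before *Gsc* held a TATA match and 2 GC boxes but no TCF/LEF match. Promoter sequence was found for 8 of the 10 members, all but *Mixl1* and *Hand1*. TCF/LEF letters stood in 3 of these 8, the *Mesp1* stretch included, and in 7.67% of 27025 RefSeq promoter stretches of the same length. A TATA match stood in 2 of the 8, *Gsc* and *Tbx6*, against 13.0% of all, and a GC box in 4 of the 8 against 32.9%. The T-box half-site AGGTGTGA and the FOXH1 letters AATNNACA were in none of the 8, against 1.14% and 11.1% of all promoters. These are matches of letters, not binding sites.

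In ES cells, 3 members were above 1 FPKM in at least 1 library. *T* was lower by 3.92-fold in the library labelled KO (log2 ratio -1.97), and *Hand1* was higher, at 2.39 against 1.09 FPKM (log2 ratio 1.13). *Eomes* was at 3.59 FPKM under the WT label and 2.24 FPKM under the KO label, short of 2-fold. So 1 member was past 2-fold in each direction. Over all 12032 loci tested in ES cells, 0.54% were past 2-fold higher and 0.59% lower, so few genes separated these libraries by this much. The same ES library is listed a second time beside spinal cord, with every member higher by 1.09 times.

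At day 2, 4 members were tested, of which 2 were past 2-fold lower in the library labelled KO and 1 was higher. *T* differed by 15.3-fold (log2 ratio -3.94) and *Gsc* by 7.45-fold (log2 ratio -2.90). *Hand1* went the other way, from 0.272 FPKM with the WT label to 1.59 FPKM with the KO label (log2 ratio 2.54), and *Eomes*, at 2.24 and 1.45 FPKM, stayed under 2-fold. Among all 11968 loci tested the shares were 1.4% lower and 1.19% higher. *T* and *Gsc* passed 1 FPKM under the WT label alone and *Hand1* under the KO label alone.

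Of the 143 genes of the lists, 10 were past 2-fold lower in the library labelled KO at day 2 and 4 were higher, *Ascl2*, *Plac1* and *Krt7* of the trophoblast list and the neurotrophin receptor *Ngfr*. They are described here after their values were seen. Of 20 listed targets and antagonists of the inducing signals, 18 were above 1 FPKM, 4 of them past 2-fold lower and none higher, with a median log2 ratio of -0.01 over the 18. *Cer1*, a secreted Nodal and Bmp antagonist, was at 4.40 FPKM under the WT label and 0.0588 FPKM under the KO label. The Wnt antagonist *Dkk1* was at 1.53 and 0.149 FPKM, the Wnt target *Sp5* at 1.33 and 0.145 FPKM, and the Wnt target *Axin2* at 3.16 and 1.32 FPKM. *Cer1*, *Dkk1* and *Sp5* passed 1 FPKM under the WT label alone, so they could be called lower only. Below 1 FPKM in both libraries and so not called, *Msx1* was at 0.212 and 0.568 FPKM and *Msx2* at 0.327 and 0.950 FPKM. Over all 20 genes the median was 0.06. Among 17 inducing signals 14 were above 1 FPKM and 2 were lower, *Fgf8* (5.35 and 0.657 FPKM) and *Wnt8a* (1.50 and 0.498 FPKM) (median -0.01 over the 14 and -0.09 over all 17). The remaining genes of the lists that were lower were *Cyp26a1*, which degrades retinoic acid, the apelin ligand *Apln* and its receptor *Aplnr*, and the endoderm and node factor *Foxa2*. *Cyp26a1* was at 3.89 and 0.209 FPKM, *Aplnr* at 1.33 and 0.0825 FPKM and *Foxa2* at 1.79 and 0.125 FPKM. Of 12 tail bud and axial progenitor genes 4 were above 1 FPKM, with *Fgf8* and *Cyp26a1* lower and none higher. Both passed 1 FPKM under the WT label alone, and the median over all 12 was -0.48. Most genes of the signal and target lists did not share the difference. *Nodal* was at 15.9 FPKM under the WT label and 24.8 FPKM under the KO label, and its antagonist *Lefty1* at 33.7 and 52.6 FPKM. None of the 7 other mesoderm factors above 1 FPKM was past 2-fold. The median over all loci tested at day 2 was 0.0019.

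**Figure D2:**
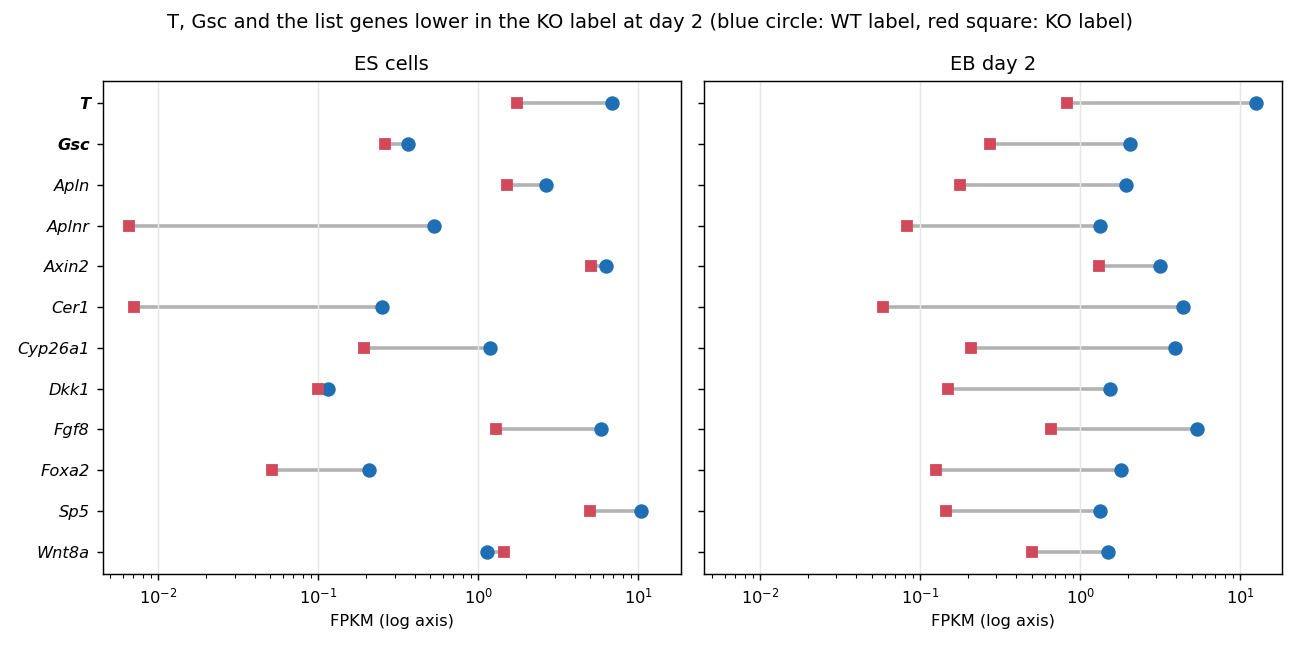
FPKM (log axis) of *T* and *Gsc* (bold) and of the 10 other genes of the fixed lists that were past 2-fold lower in the library labelled KO at day 2, in ES cells (left) and at day 2 (right). Blue circles are the library labelled WT and red squares the one labelled KO, 1 library each; at day 2 all 12 genes lie lower in the KO label, and in ES cells *Wnt8a* alone lies higher there.

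Part of this pattern was already present in ES cells. *Fgf8* was at 5.87 and 1.30 FPKM there, *Sp5* at 10.5 and 4.97 FPKM and *Cyp26a1* at 1.19 and 0.193 FPKM, all past 2-fold lower with the KO label. Outside the day 2 pattern, *Fgf5* was lower in ES cells, at 1.71 and 0.721 FPKM, but within 2-fold at day 2 (11.3 and 9.27 FPKM), and the Bmp target *Id2* was higher, at 16.0 and 32.5 FPKM. These genes were singled out after their values were seen. The 12 fibroblast genes, which the feeder layer could bring in, summed to 599 and 657 FPKM in the ES libraries and to 91.0 and 96.3 FPKM at day 2, and none of them was past 2-fold at either step. The part of feeder fibroblasts in the day 2 levels was not tested.

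*Eomes*, a T-box factor of the streak, the endoderm and the trophoblast, lies on chromosome 9 from 118387307 to 118395250 (plus strand). Under the WT label it was at 3.59, 2.24, 0.177 and 1.77 FPKM from ES cells to day 6. Under the KO label it was at 2.24, 1.45, 0.728 and 7.09 FPKM. In tissue it was at 0.00177 FPKM or less. *Eomes* therefore dipped at day 4 in both cultures, though by 1.98-fold and so within 2-fold under the KO label. It was back at day 6, where the library labelled KO held the highest *Eomes* level of the 11. *Mixl1*, a homeobox factor induced by Nodal in the streak, was between 0.127 and 0.772 FPKM in the 8 culture libraries, highest in ES cells with the WT label, and at 0.0246 FPKM or listed at 0 in tissue.

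*Hand1*, a basic helix-loop-helix factor of lateral plate, heart and trophoblast giant cells, lies on chromosome 11 from 57642215 to 57645649 (minus strand). It was at 1.09, 0.272, 0.120 and 1.82 FPKM from ES cells to day 6 under the WT label and at 2.39, 1.59, 1.16 and 14.5 FPKM under the KO label. It was at 1.54 and 0.795 FPKM in spinal column, in the order WT and KO label, and at 0.0148 FPKM in spinal cord. *Hand1* was thus past 2-fold higher in the library labelled KO at all 4 steps of the culture, by 2.19-fold in ES cells, 5.83-fold at day 2, 9.67-fold at day 4 and 8.01-fold at day 6. The 4 steps share their clones, so they are not independent of each other. With 1 FPKM added to both values the differences in ES cells and at day 4 were within 2-fold (log2 ratios 0.70 and 0.95).

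At day 4, 2 members were above 1 FPKM and both were past 2-fold higher in the library labelled KO, *Hand1* (log2 ratio 3.27) and *Foxc1* (1.62). The share of all 12563 loci past 2-fold higher was 12.1% at this step, and 4.46% were lower. At day 6, 5 members were tested. *Hand1* (8.01-fold) and *Eomes* (4.01-fold) were past 2-fold higher with the KO label and *Hand2* (log2 ratio -1.70) was lower. *Gsc* (log2 ratio 0.69) and *Foxc1* (-0.37) were within 2-fold. Of 13006 loci tested, 10.5% were higher and 9.93% lower.

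**Figure D3:**
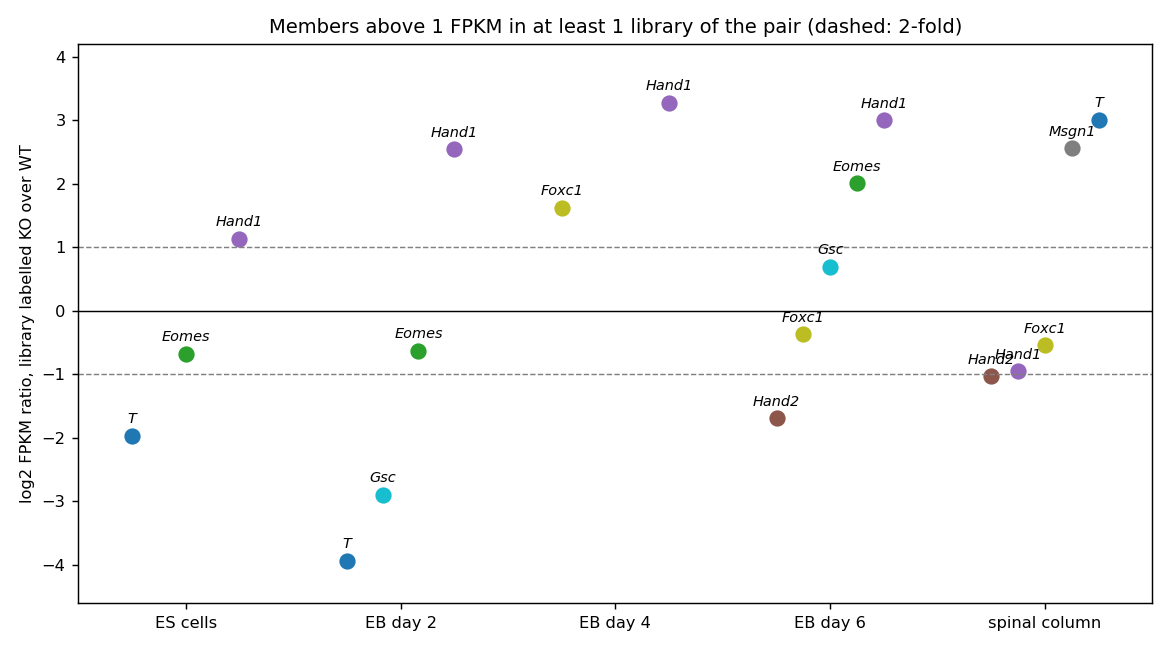
Log2 ratio of FPKM, library labelled KO over library labelled WT, for each member above 1 FPKM in at least 1 library of the pair, in 5 comparisons. Each point is 1 gene from 1 library per label, dashed lines mark 2-fold, and *Gsc* in spinal column is not drawn because it is listed at 0 under the WT label; *Hand1* lies above 2-fold in the 4 culture comparisons, and *T* lies below in ES cells and at day 2 but above in spinal column.

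Trophoblast genes were higher in the library labelled KO at days 4 and 6, where *Hand1* was higher too, and at day 6 so was *Eomes*. Of 11 listed trophoblast genes other than *Hand1*, 8 were above 1 FPKM at day 4 and 9 at day 6. Every one of these was past 2-fold higher in the library labelled KO, with median log2 ratios of 3.26 and 2.35. Under the WT label 3 passed 1 FPKM at day 4 and 6 at day 6. The others were admitted through the KO label alone, which fixed their direction. Over all genes with a value above 0 in both libraries the medians were 3.22 and 2.21. The shares of all loci past 2-fold higher were 12.1% and 10.5%. The medians over all loci tested were -0.03 and -0.0031. The summed level of the 11 genes was 6.72 FPKM at day 4 under the WT label and 64.8 FPKM under the KO label, and 51.8 against 247 FPKM at day 6. At day 2 the sums were 33.4 and 56.6 FPKM, and 3 of 5 genes above 1 FPKM were past 2-fold higher and none lower, against 1.19% of all loci. These were *Plac1*, a placental surface protein, at 0.104 and 2.09 FPKM, *Ascl2*, a factor of the ectoplacental cone, higher by 2.78-fold, and *Krt7*, a simple epithelial keratin, at 1.85 and 5.49 FPKM. In ES cells the sums were 54.8 and 69.8 FPKM, and none of the 4 above 1 FPKM was past 2-fold. *Eomes* lay lower with the KO label but within 2-fold in ES cells and at day 2 (log2 ratios -0.68 and -0.63), and at day 4, where it was below 1 FPKM in both libraries and so was not called, it lay higher by 4.12-fold. At day 6 *Krt7* was at 17.0 and 109 FPKM. *Plet1*, a trophoblast surface protein, was at 3.96 and 39.9 FPKM, and *Tpbpa*, a marker of the spongiotrophoblast, at 0.0782 and 8.70 FPKM. *Cdx2*, the caudal factor that specifies trophectoderm and is also active in the tail bud, was at 0.721 and 3.68 FPKM. At day 4 *Plac1* was at 0.162 and 5.69 FPKM, and *Tfap2c*, a trophoblast and germ cell factor, at 1.97 and 24.9 FPKM. The remaining genes of the list, *Elf5* and *Prl3d1*, were below 1 FPKM in both libraries at day 6. The part of trophoblast-like cells in the *Hand1* and *Eomes* levels was not tested.

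**Figure D4:**
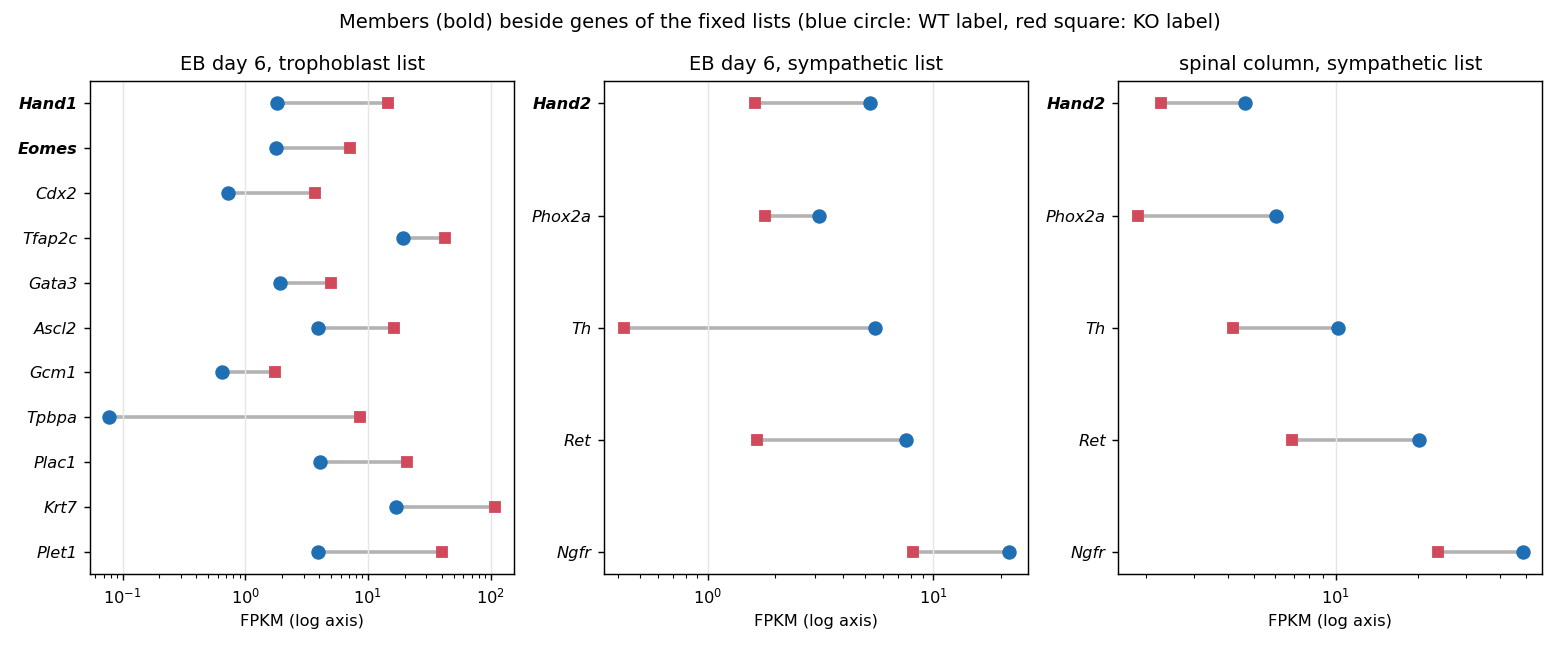
FPKM (log axes, a different range in each panel) of *Hand1* and *Eomes* beside the 9 trophoblast genes above 1 FPKM at day 6 (left), and of *Hand2* beside 4 sympathetic and neural crest genes at day 6 (middle) and in spinal column (right). Blue circles are the library labelled WT and red squares the one labelled KO, 1 library each; all genes drawn on the left lie higher with the KO label and all drawn in the other panels lie lower, while genes of the sympathetic list above 1 FPKM that lie higher with the KO label (*Foxd3*, *Gata3* and *Tfap2a* at day 6, *Gata3* and *Tfap2a* in spinal column) are not drawn.

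Genes of the signals that induce mesoderm were also higher with the KO label at the later days. Among the 17 inducing signals, 7 were past 2-fold higher and 1 lower of 14 above 1 FPKM at day 4 (median log2 ratio 0.60), and 7 higher and none lower of 16 at day 6 (median 0.96). Of all loci, 12.1% were higher and 4.46% lower at day 4, and 10.5% and 9.93% at day 6. *Tdgf1*, the Nodal co-receptor, was at 0.320 and 8.62 FPKM at day 4 and at 17.7 and 114 FPKM at day 6. *Fgf4* was at 5.27 and 24.7 FPKM at day 6 and *Wnt8a* at 0.0676 and 1.12 FPKM at day 4. Of the 20 targets and antagonists, 10 were higher and 2 lower of 17 at day 4 (median 1.46), and 9 higher and 1 lower of 18 at day 6 (median 0.99). The Nodal antagonists *Lefty1* and *Lefty2* led at day 4, at 1.80 and 43.0 FPKM and at 0.295 and 6.52 FPKM. The Bmp targets *Id1* and *Id3* were lower, *Id1* at 69.0 and 23.3 FPKM. At day 6 *Msx2* was at 2.30 and 9.03 FPKM, and the Wnt antagonist *Nkd1* was lower, at 6.14 and 2.38 FPKM.

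Pluripotent cells use the Nodal and Fgf genes too, and the pluripotency list had the same direction. Of its 8 genes, 7 were past 2-fold higher with the KO label at day 4 and 5 at day 6, with medians of 2.66 and 1.46. *Nanog* was at 3.77 and 42.9 FPKM and *Esrrb* at 1.53 and 22.5 FPKM at day 4. Of the 10 neural progenitor and motor neuron genes, 6 were past 2-fold lower and 1 higher of 8 above 1 FPKM at day 4, and 10 of 10 were lower at day 6, with medians of -2.67 and -4.04. The higher one at day 4 was the motor neuron factor *Mnx1*, at 2.32 and 5.01 FPKM. *Neurog2*, a proneural factor, was at 44.3 and 0.219 FPKM at day 6 and the Notch target *Hes5* at 24.4 and 0.533 FPKM. Which of these cell types held the *Eomes* and *Hand1* transcripts was not tested.

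Other mesoderm factors differed mainly in 1 direction at day 4 and in both at day 6. Of 25 further factors, 14 were above 1 FPKM at day 4, with 10 past 2-fold higher with the KO label and 1 lower (median 1.25). At day 6 it was 16, with 3 higher and 3 lower (median 0.28). All 14 passed 1 FPKM at day 4 under the KO label but 8 under the WT label, so the others could be called higher only. Over all genes with a value above 0 in both libraries the medians were 1.30 and 0.50. Of the 12 fibroblast genes, 11 were higher and 1 lower at day 4 and 8 were higher and none lower at day 6, and *Prrx1* and *Twist1* stand in both lists. The part of fibroblasts in these counts was not tested. *Gata4*, a factor of cardiac mesoderm and endoderm, was at 1.44 and 5.34 FPKM at day 4, and *Prrx1*, a factor of limb and facial mesenchyme, at 0.288 and 1.13 FPKM. At day 6 *Prrx1* was at 1.83 and 5.69 FPKM, and the somite boundary factor *Mesp2* at 1.15 and 2.46 FPKM. The Notch ligand *Dll3*, used in presomitic mesoderm and in new neurons, was lower on both days, at 6.54 and 1.77 FPKM and then at 21.2 and 1.18 FPKM. Of 10 mesoderm surface and matrix genes, 8 passed 1 FPKM at each of these days, with 6 higher and 1 lower at day 4 and 5 higher and 1 lower at day 6 (medians 1.49 and 1.31). Over all 10 the medians were 1.34 and 0.55. *Pdgfra*, the receptor of paraxial mesoderm, was at 0.308 and 1.15 FPKM at day 4 and 1.88 and 5.89 FPKM at day 6. The endothelial adhesion molecule *Pecam1* was at 1.13 and 6.81 FPKM at day 4, and the vascular ligand *Apln* was lower, at 3.56 and 1.32 FPKM.

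Among 12 tail bud and axial progenitor genes, 2 of 6 above 1 FPKM were higher at day 4, and 4 were higher and 4 lower of 9 at day 6 (medians 0.47 and 0.39). Over the 11 genes with a value above 0 in both libraries the medians were 0.90 and 0.39. The caudal factor *Cdx1* was at 1.54 and 18.8 FPKM at day 4 and 17.7 and 78.1 FPKM at day 6, while *Sp8* was at 8.87 and 1.49 FPKM at day 6. Of 10 definitive endoderm genes, 2 were higher and 1 lower of 8 at day 4, and none higher and 1 lower of 8 at day 6 (medians -0.02 and 0.09). The lower one at day 6 was the chemokine receptor *Cxcr4*, also a gene of neurons and mesoderm, at 39.6 and 3.54 FPKM. *Sox17*, the defining endoderm factor, was at 1.47 and 2.81 FPKM at day 6, short of 2-fold.

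*Foxc1*, a forkhead factor of paraxial mesoderm, meninges and mesenchyme, lies on chromosome 13 from 31898515 to 31902504 (plus strand). It was at 0.425, 0.218, 1.13 and 3.03 FPKM from ES cells to day 6 under the WT label and at 0.496, 0.197, 3.47 and 2.34 FPKM under the KO label. In spinal column it was at 6.73 FPKM (WT label) and 4.61 FPKM (KO label), and in spinal cord at 4.36 FPKM. *Foxc1* was thus the member that the tissues had most of, and its difference between labels at day 4 was gone by day 6. Fibroblast genes differed in the same direction at day 4. The median log2 ratio over the 12 was 2.21, and their sum was 11.1 FPKM under the WT label and 47.5 FPKM under the KO label. *Dcn*, a matrix proteoglycan, was at 0.329 and 6.03 FPKM, and *Lum*, another, at 0.0565 and 1.35 FPKM. At day 6, where *Foxc1* was within 2-fold, 8 of the 12 were still higher and none lower (median 1.33), with sums of 74.0 and 176 FPKM. *Col5a2*, a fibrillar collagen, was at 1.39 and 5.24 FPKM at day 6. The fibroblast sum was 422 FPKM in spinal cord and 3399 to 3997 FPKM in spinal column. The part of feeder fibroblasts in the *Foxc1* level was not tested.

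*Hand2*, a basic helix-loop-helix factor of heart, limb and sympathetic neurons, lies on chromosome 8 from 59799780 to 59803314. It was at 0.543, 0.0996, 0.784 and 5.27 FPKM from ES cells to day 6 under the WT label and at 0.680, 0.278, 0.328 and 1.63 FPKM under the KO label. It was at 4.65 and 2.27 FPKM in spinal column, in the order WT and KO label, and listed at 0 in spinal cord. *Hand2* was therefore high at day 6 and in spinal column, and in both places lower in the library labelled KO, by 3.24-fold and 2.05-fold. The spinal column difference was barely past 2-fold, and with 1 FPKM added to both values it was not (log2 ratio -0.79).

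Sympathetic and neural crest genes were lower in part where *Hand2* was lower. Of 10, 8 were above 1 FPKM at day 6, with 4 past 2-fold lower and 2 higher with the KO label (median log2 ratio -1.10). In spinal column 9 were above 1 FPKM, with 5 lower and none higher (median -1.04), where 8.54% of all loci were lower, 9.05% were higher and the median over all loci tested was 0.06. *Th*, tyrosine hydroxylase, was at 5.51 and 0.424 FPKM at day 6 and 10.2 and 4.18 FPKM in spinal column. *Ret*, a receptor of glial-derived growth factors, was at 7.60 and 1.66 FPKM at day 6 and 20.2 and 6.90 FPKM in spinal column. *Dbh*, which converts dopamine to noradrenaline, was at 11.8 and 4.46 FPKM in spinal column but at 0.0336 FPKM and listed at 0 at day 6, so the day 6 cultures lacked this marker of noradrenergic cells. The genes with the opposite direction at day 6 were *Foxd3*, an early neural crest and ES cell factor, at 1.58 and 6.99 FPKM, and *Gata3*, also a trophoblast gene, at 1.91 and 4.97 FPKM. Neural genes lay lower too. All 10 of the neural progenitor and motor neuron list were past 2-fold lower at day 6, and in spinal column their sum was 353 FPKM with the WT label and 222 FPKM with the KO label, with 1 of 7 past 2-fold lower (median -0.67), *Nkx6-1* at 2.77 and 0.838 FPKM. Spinal column can hold sympathetic ganglia, and the part of these or other neural cells in the *Hand2* difference was not tested.

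In spinal column 6 members were above 1 FPKM. *T*, *Msgn1* and *Gsc* were past 2-fold higher in the library labelled KO and *Hand2* was lower, where 9.05% of 14255 loci were higher and 8.54% lower. *T*, *Msgn1* and *Gsc* each passed 1 FPKM under the KO label alone, so they could be called in that direction only. *T* differed by 8.06-fold (log2 ratio 3.01). *Msgn1*, a basic helix-loop-helix factor of presomitic mesoderm on chromosome 12 from 11215188 to 11215754, was at 0.511 FPKM with the WT label and 3.01 FPKM with the KO label (log2 ratio 2.56), and *Gsc* was listed at 0 and at 1.19 FPKM. In the cultures *Msgn1* was at 0.424 FPKM in ES cells and 0.168 FPKM at day 2 with the WT label, at 0.0454 FPKM at day 6 with the KO label, and listed at 0 in the other 5 libraries. *Hand1* and *Foxc1* were lower with the KO label but within 2-fold (log2 ratios -0.96 and -0.54). The FPKM of all loci summed higher in the library labelled KO here, by 0.55 on the log2 scale, and with equal sums *Hand1* and *Foxc1* were past 2-fold lower, at -1.51 and -1.09. Equal sums lower every ratio of this pair alike, and the other values given for spinal column are unscaled. The median log2 ratio over all loci tested was 0.06, so the typical locus did not carry the difference in sums.

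Other tail bud genes were low beside *T* and *Msgn1*. *Tbx6* was at 0.0488 FPKM with the WT label and 0.230 FPKM with the KO label in spinal column. Of 12 tail bud genes 4 were listed at 0 with the WT label and 7 with the KO label. The 1 above 1 FPKM was *Sox2*, also a neural gene, at 8.71 and 4.68 FPKM, and no other passed 0.620 FPKM in either library. The mesoderm factors past 2-fold were *Tcf15*, a somite factor, at 2.42 and 5.98 FPKM, and *Uncx*, a sclerotome factor, at 1.58 and 0.572 FPKM, out of 16 above 1 FPKM in a list of 25. Of 5 trophoblast-list genes above 1 FPKM, 3 were past 2-fold higher with the KO label, *Krt7* at 1.27 and 3.43 FPKM, *Tfap2c* at 0.126 and 1.50 FPKM and *Plet1* at 0.602 and 2.22 FPKM. *Nanog* was at 0.435 and 1.68 FPKM there. It was the 1 gene past 2-fold of 5 above 1 FPKM in the pluripotency list, whose median log2 ratio was -0.29. *Pou5f1* of that list was listed at 0 in both libraries. Cartilage and sclerotome genes summed to 190 FPKM with the WT label and 109 FPKM with the KO label, with 1 of 8 past 2-fold lower and none higher. The part of differing dissection in these values was not tested.

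Spinal cord held little of the members apart from *Foxc1*. Set beside the ES values listed with it, 4 members were above 1 FPKM in either, and all 4 were past 2-fold, as were 66.2% of all 14390 loci tested. *T* was at 7.47 FPKM in these ES values and listed at 0 in spinal cord, *Eomes* was at 3.91 and 2.93e-05 FPKM, and *Hand1* at 1.19 and 0.0148 FPKM. *Foxc1* was higher in spinal cord, 4.36 against 0.463 FPKM (log2 ratio 3.24). *Mesp1*, on chromosome 7 from 86937127 to 86938476, had its highest level in spinal cord at 0.251 FPKM, was between 0.0197 and 0.0953 FPKM in the cultures and was listed at 0 in both spinal column libraries. *Tbx6*, on the same chromosome from 133924997 to 133929062, was between 0.155 and 0.338 FPKM in all 8 culture libraries, the flattest course of the 10, and at 0.215 FPKM in spinal cord.

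The same rule was applied between culture steps. From ES cells to day 2 under the WT label, 2 of 4 members tested were past 2-fold, *Hand1* lower and *Gsc* higher, against 13.2% of all loci. From day 2 to day 4 it was 4 of 4, *T*, *Eomes* and *Gsc* lower and *Foxc1* higher, against 29.4%. From day 4 to day 6 it was 5 of 5, all higher (*Eomes*, *Hand1*, *Hand2*, *Foxc1* and *Gsc*), against 26.9%. Under the KO label the counts were 1 of 3 (*T*, lower), 1 of 3 (*Foxc1*, higher) and 4 of 5 (*Eomes*, *Hand1*, *Hand2* and *Gsc*, all higher), against 14.4%, 23.1% and 23.5% of all loci. The members were chosen with these courses in view, so nothing is read from the counts. The tables of the days were normalized separately. From day 4 to day 6 *Eomes* was higher by 9.99-fold under the WT label and 9.73-fold under the KO label, and *Hand1* by 15.1-fold and 12.5-fold.

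The pluripotency sum also went up over this interval, from 118 to 442 FPKM under the WT label and from 305 to 1037 FPKM under the KO label, and so did the fibroblast and trophoblast sums in both. *Eomes*, *Hand1* and *Gsc*, whose day 6 levels followed a low at day 4 in the WT-labelled culture, shared that course with these lists. The part of carried-over ES or feeder cells was not tested.

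Over the 8 culture libraries, Pearson's r of log2(FPKM + 0.1) was used to find the 3 non-member genes most like each of the 6 members above 1 FPKM in at least 1 of them. For *Eomes* these were *Arpc1b* (r = 0.99), *Rhbg* (0.98) and *Dlgap3* (0.98), and for *Hand1* *Cd81* (0.98), *Cphx2* (0.98) and *Il6ra* (0.98). For *Foxc1* they were *Ubash3b*, *Dnm1* and *Kcnj12* (each 0.99), and for *Hand2* *Spcs1*, *Romo1* and *Cycs* (each 0.97). For *T* they were *Prmt7* (0.97), *Foxr1* (0.96) and *Nln* (0.96), and for *Gsc* *Oas1c* (0.97), *Car11* (0.96) and *Tspo2* (0.93). The 8 points share 2 clones and were searched over 13688 genes, so the correlations are given as a description. Likeness in course is not likeness in range: *Prmt7* was between 48.5 and 92.2 FPKM while *T* went from 12.6 to 0.0451 FPKM. *Cphx2*, by contrast, followed *Hand1* in size as well, from 0.0208 FPKM at day 4 with the WT label to 3.36 FPKM at day 6 with the KO label. Among the members themselves *Eomes* and *Hand1* had the highest correlation (r = 0.75), and *T* and *Foxc1* the lowest (-0.81).

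ChIP-seq placed no TAF9B or RNA polymerase II (Pol2) peak midpoint within 500 bp of the start of any member. The cells were WT EBs of day 8, in which the transcripts of these genes were not measured. A TAF9B peak midpoint lay within 5 kb of the start of 1 of the 10 members, *Tbx6*, against 25.2% of 19045 annotated starts, and a Pol2 peak within 5 kb of *Tbx6* alone, against 35.9%. Within 50 kb, 7 members had a TAF9B peak, against 54.2% of starts, and 4 a Pol2 peak, against 55.9%. For *Tbx6* both peaks were 4.6 kb upstream and within 0.14 kb of the start of *Ypel3*. The nearest TAF9B peaks of *Mesp1*, *Msgn1* and *Gsc* were 83.4, 227.7 and 559.1 kb away.

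The TAF9B peaks near members were of 2 kinds. Those near *Hand1*, *Mixl1* and *Tbx6* sat within 0.15 kb of the start of another gene, *Sap30l*, *Acbd3*, and *Ypel3* or *Ppp4c*, and overlapped a Pol2 peak. Those near *T*, *Eomes*, *Hand2* and *Foxc1* overlapped no Pol2 peak, and the member's own start was the nearest annotated one. The *Eomes* peak (score 244) lay 11.7 kb downstream of the start, beyond the end of the gene, and scored above 95.2% of the 10415 TAF9B peaks. The *Hand2* peak (183) lay 32.8 kb downstream of its start, the *T* peak (112) 34.5 kb downstream, and the *Foxc1* peak (99.6) 14.0 kb upstream. None of these 4 peaks was inside an annotated gene.

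**Figure D5:**
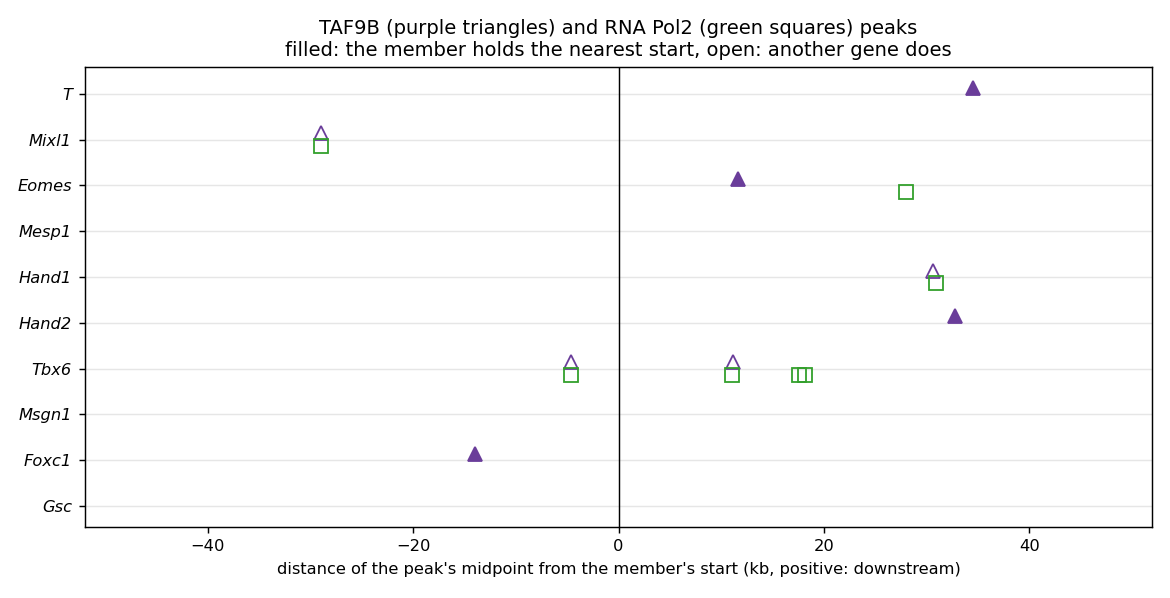
Distance in kb of each TAF9B peak (purple triangles) and Pol2 peak (green squares) within 50 kb from the annotated start of each member, positive values being downstream. Filled symbols mark peaks to which the member's start is the nearest and open symbols peaks nearer to another gene's start; the 4 filled symbols, at *T*, *Eomes*, *Hand2* and *Foxc1*, are all TAF9B peaks and lie 11.7 to 34.5 kb from the start.

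The central 200 bases of these 4 peaks are shown because for each of them the start of a member that differed between the libraries is the nearest annotated start. They are on the plus strand of the mouse genome, build NCBIM37 (mm9). Capitals mark the letters CNAGNNGGC on either strand, the core of the motif of CTCF, a factor that anchors chromatin loops.
*T* peak, chr17:8661664-8661863: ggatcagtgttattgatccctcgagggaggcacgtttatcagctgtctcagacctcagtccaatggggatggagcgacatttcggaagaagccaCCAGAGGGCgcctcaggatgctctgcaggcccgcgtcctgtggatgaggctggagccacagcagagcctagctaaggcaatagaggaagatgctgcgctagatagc
*Eomes* peak, chr9:118398861-118399060: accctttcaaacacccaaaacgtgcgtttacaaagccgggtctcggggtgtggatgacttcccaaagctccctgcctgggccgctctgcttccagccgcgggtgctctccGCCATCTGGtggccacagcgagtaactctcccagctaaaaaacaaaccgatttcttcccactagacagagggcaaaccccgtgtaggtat
*Hand2* peak, chr8:59832470-59832669: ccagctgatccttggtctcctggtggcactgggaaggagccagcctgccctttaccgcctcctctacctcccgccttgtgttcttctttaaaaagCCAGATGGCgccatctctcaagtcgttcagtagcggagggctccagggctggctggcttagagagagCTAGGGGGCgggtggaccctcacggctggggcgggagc
*Foxc1* peak, chr13:31884452-31884651: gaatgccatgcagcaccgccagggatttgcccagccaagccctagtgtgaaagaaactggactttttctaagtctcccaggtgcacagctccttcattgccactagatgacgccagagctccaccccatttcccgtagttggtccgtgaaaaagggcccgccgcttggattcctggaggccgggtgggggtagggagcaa

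The CTCF core letters were found in 3 of the 4, all but the *Foxc1* peak, with 2 matches in the *Hand2* peak. The same letters were in 25.6% of 10402 TAF9B peak windows of this length, in 26.4% of those within 5 kb of a start and 25.0% of those farther away. This motif was picked after the 4 sequences had been read, so the count is a description. The T-box half-site AGGTGTGA, the TCF/LEF letters and AGATAA, the letters of GATA factors, were in none of the 4, against 0.404%, 4.35% and 4.92% of all TAF9B windows. CAGCTG, an E-box that OLIG2 and other basic helix-loop-helix factors bind, was in the *T* and *Hand2* peaks and in 17.1% of all.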

How the data were processed

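RNA-seq was analysed in 11 libraries and ChIP-seq in the TAF9B and Pol2 peak lists. The tables that the authors deposited hold FPKM values, made from poly-A reads mapped with TopHat to RefSeq genes and quantified with Cuffdiff in 6 pairwise tables, each normalized by itself. The peak files, as deposited, hold a score from MACS, which the authors ran on reads aligned to mm9 by Bowtie. Tool versions and options are not given in the sources used here. Columns with the authors' own fold changes and p-values were not used. No peak list of the IgG control was analysed here.

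Loci were joined across tables by the first RefSeq accession and the position, and 22762 of 23152 received a symbol. Log2 ratios carry no pseudocount. FPKM tables hold no read counts, no whole-read step could be read from low values, and depth is unknown. Starts for peak distances took their strand from GENCODE M1 (NCBIM37), found for 19063 loci. Promoters are RefSeq's, and peak bases were read from the NCBIM37 genome.

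The members and gene lists were chosen with earlier results of these data known. Named beside the members were *Taf9b*, in each list up to 2 genes with the highest and up to 2 with the lowest ratio at days 4 and 6 among those above 1 FPKM with a value above 0 in both libraries, and the 3 genes most like each member. Genes with starts nearer to a peak were named too. The listed sympathetic and neural crest genes leave out 1 gene, which is not reported here. Other genes were named after their values were seen, among them all list genes of ES cells, day 2 and spinal column. The script that counts changes was tested on simulated data. Python 3.11.15 was used with numpy 2.4.6, pandas 2.3.3 and matplotlib 3.10.9.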

Additional observations from a re-analysis of the deposited data

Results flagged for a closer look

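*T* and *Gsc* were past 2-fold in opposite directions in different pairs of libraries. *T* was lower with the KO label in ES cells (1.75 FPKM) and at day 2 (0.822 FPKM) and higher with it in spinal column (1.72 FPKM). *Gsc* was lower with the KO label at day 2 (0.273 FPKM) and higher with it in spinal column (1.19 FPKM). Each direction rests on 1 library per label, and the difference between the pairs was not tested. *Taf9b* too changed its order between cultures and spinal column, being higher with the KO label in the former and lower in the latter.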

How the results depend on the processing

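Without replicates no library could be left out. No paired analysis was possible because each condition has 1 library, and all libraries carry the same replicate number. The counts of members past 2-fold between labels were 2 (ES cells), 3 (day 2), 2 (day 4), 3 (day 6) and 4 (spinal column). With no filter on low values the first 4 counts were 5, 6, 7 and 5. In spinal column *Tbx6* and *Mixl1* joined with no filter, and *Hand1* and *Foxc1* with equal sums of FPKM. With 1 FPKM added to both values the counts were 1 in ES cells and 1 at day 4. With both libraries required above 1 FPKM they were 0 at day 2, 1 at day 4 and 1 in spinal column, and at a 4-fold limit 0 in ES cells and 1 at day 4. The 4 members in spinal cord over ES cells became 9 with no filter and 0 with both above 1 FPKM. Between days, the 11 calls under the WT label became 7 with 1 FPKM added and 1 with both above 1 FPKM, and the 6 under the KO label became 3 and 1. The 1 member with a peak within 5 kb became 0 within 500 bp and 7 within 50 kb. The rules on low values change which values are admitted, added FPKM shrinks the ratios of low genes, and the 4-fold limit raises the threshold. No member past 2-fold changed direction under any of these settings. Of the 18 genes most like a member, 7 were found again with 1 FPKM in place of 0.1. Medians of the gene lists were also taken over all genes with a value above 0 in both libraries, an alternative chosen after seeing the data: for tail bud genes at day 2 -1.74 became -0.48, for inducing signals at day 4 0.60 became 1.15, for surface and matrix genes at day 6 1.31 became 0.55, and for targets at day 2 -0.01 became 0.06.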
